A study of Mus musculus with 12 samples.

Results

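Glutathione transferases join the thiol of glutathione to reactive electrophiles, and the conjugates are then exported and broken down to mercapturates. The soluble enzymes work as dimers and are sorted into classes by sequence, while the kappa enzyme belongs to a separate mitochondrial and peroxisomal lineage. Liver is rich in these enzymes, and several of their genes are textbook targets of the oxidant sensor Nrf2 and of the xenobiotic receptors.

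The genes described were 10 mouse glutathione transferases outside the mu class, listed by name. They were Gsta1, Gsta2, Gsta3 and Gsta4 of the alpha class, Gstp1 of the pi class, Gstt1, Gstt2 and Gstt3 of the theta class, Gstk1 of the kappa class and Gsto1, which belongs to the omega class. All 10 had a row among the 55401 gene rows of the count table. A filter on low counts kept 13205 genes and 9 of the 10 members. Gsta1 was left out by it.

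Liver RNA came from 12 female mice aged 15 weeks, 6 in a group labelled iTgMir483 and 6 in a Control group of littermates, with 1 library per mouse. The iTgMir483 mice carry a Tet-off transgene for the microRNA gene Mir483 at the Rosa26 locus, whose expression is inhibited while doxycycline is given. Dams drank doxycycline during pregnancy and it was then withdrawn, so the transgene was active after birth in any tissue that uses Rosa26, not in liver alone. The selection cassette of the targeted allele had been removed with a ubiquitous CMV-Cre, and the samples of both groups are named after that cross. Whether each Control mouse carried the Cre is not stated in the labels. The comparison of the groups asks what excess Mir483 after birth does to the liver transcriptome.

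Library totals were 12244123 to 30431286 counts in Control and 12415140 to 15846175 in iTgMir483. The Mir483 row held 0 counts in every Control library, where 3 counts is the limit that a count of 0 allows, and 318 to 761 counts in the iTgMir483 libraries, so the labels held. Levels are given as CPM, read counts divided by a library size that TMM scaling makes comparable between livers. A gene is called changed where edgeR's quasi-likelihood test gave an adjusted p under 0.05 over all genes tested and the fold change passed 1.5. By that rule 1470 of the 13205 genes changed, a background of 11.1%, with 8.41% higher and 2.73% lower. Known hepatocyte genes filled these libraries (7 of 8 listed markers had a row and summed to 126980 to 173209 CPM in Control and 70605 to 139635 CPM in iTgMir483, none at 0), as the tissue label says.

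The libraries numbered 1 in both groups stood apart from the others in these genes. Control 1 was the highest Control library for 5 of the 9 tested members, and iTgMir483 1 was the highest of its group for 5. Results that rest on them are given with and without these libraries.

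The transgene yields a pair of mature microRNAs, and their sequences are shown because the seed, bases 2 to 8 in capitals, is what pairs with a target. Both come from RefSeq on GRCm38.p6, minus strand, the 3p arm at chr7:142654932-142654952 and the 5p arm at chr7:142654968-142654989.
mmu-miR-483-3p: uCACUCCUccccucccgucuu
mmu-miR-483-5p: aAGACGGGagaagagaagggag
The letters that pair with bases 2 to 8 are AGGAGTG for the 3p arm and CCCGTCT for the 5p arm. Neither was present in the longest annotated 3′ UTR of any of the 10 members. Across 20996 genes with a 3′ UTR, 10.6% held the match to the 3p arm and 2.65% that to the 5p arm. The members' 3′ UTRs were short, from 66 bases in Gstp1 to 771 bases in Gstt2.

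Only 1 of the 9 tested members changed, Gstt3, and it was lower. That is 0 higher and 1 lower, or 1 by adjusted p alone, beside backgrounds of 11.1% changed, 2.73% lower and 18.6% by adjusted p alone. The median log2 fold change of the 9 was -0.15, against 0.01 over all genes tested. Of the 9 values 7 were negative, where 49.2% of all genes were negative. No member had groups that did not overlap, which was so for 7.92% of all genes.

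**Figure D1:**
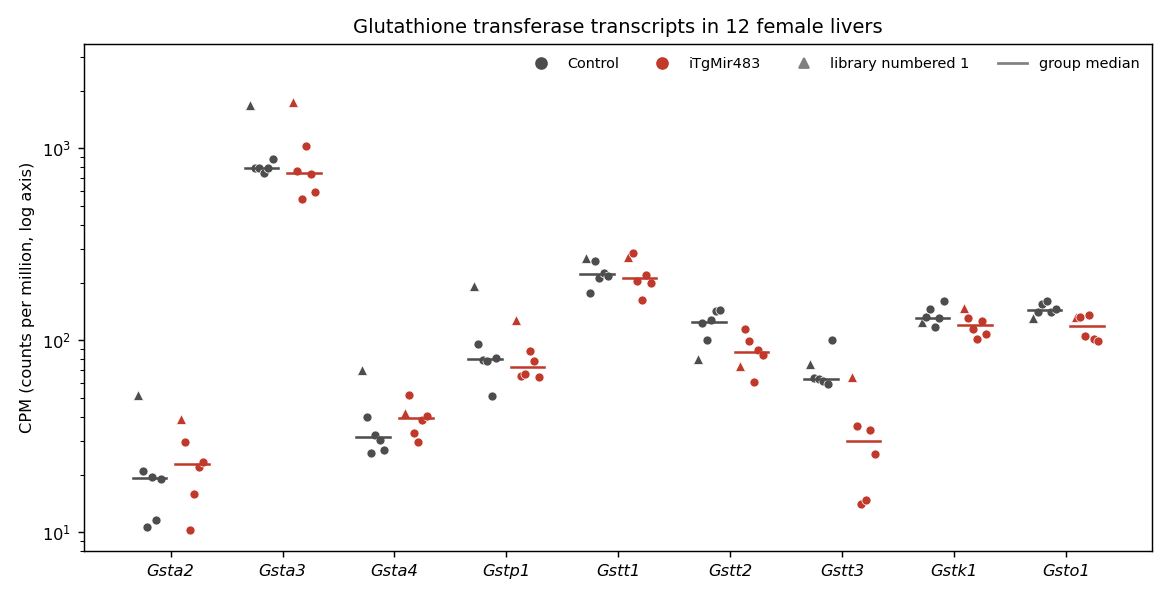
Each point is the CPM of a gene in a liver on a log axis, grey for Control and red for iTgMir483, with a line at the group median and triangles for the libraries numbered 1. For Gstt3, 5 of 6 iTgMir483 livers lie under every Control, and for no gene do the groups separate fully.

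Gstt3 encodes a theta-class enzyme and lies at chr10:75774115-75781414 on the minus strand (GRCm38, ENSMUSG00000001665), in a cluster with Gstt1, Gstt4 and Gstt2. Control livers held 75.0, 63.6, 63.0, 61.5, 59.3 and 100.6 CPM, and iTgMir483 livers 64.1, 35.9, 14.1, 14.7, 34.3 and 25.5 CPM. In 5 of 6 iTgMir483 livers the level was below the lowest Control, and that of iTgMir483 1 lay among the Controls. The log2 fold change was -1.17 (SE 0.31, 95% CI -1.82 to -0.51), a level 0.446 times that of Control, with an adjusted p of 0.0174 by edgeR's quasi-likelihood test.

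The iTgMir483 livers also differed more among themselves. The coefficient of variation of Gstt3 was 58.8% in iTgMir483 and 22.3% in Control. Livers 3 and 4 held the lowest levels and liver 1 the highest. Without both libraries numbered 1 the log2 fold change was -1.48 (adjusted p 0.00238, edgeR) and the groups no longer overlapped, with 59.3 to 100.6 CPM in Control and 14.1 to 35.9 CPM in iTgMir483. The same became true of Gsto1, so 2 of the 9 members had separate groups in these 10 libraries, against 14.9% of all genes. For Gstt3 the separation followed from leaving out iTgMir483 1, the only liver of its group not below every Control.

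When the test asked for a fold change above 1.5 rather than above 1, Gstt3 did not pass (adjusted p 0.249, edgeR). Its count also had a limit of annotation. Of the 50-base windows of its transcript, 26.0% also lie in Gm20441, a gene annotated over the same strand at chr10:75771451-75780954, and the row of Gm20441 held 0 counts in all 12 libraries. How the counting treated reads that fall in both genes is not given in the sources used here. Ddt, which encodes D-dopachrome tautomerase and is also overlapped by Gm20441, adjoins Gstt3 at chr10:75771230-75773414 and was singled out for this position after its values were seen. It held 66.4 to 101.4 CPM in Control and 56.7 to 66.2 CPM in iTgMir483, with no overlap, and its log2 fold change of -0.55 (95% CI -0.76 to -0.34) passed the adjusted p (0.00250, edgeR) but not the 1.5-fold limit.

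Gstt1, which conjugates small halogenated compounds, lies next to Gstt3 at chr10:75783813-75798584. Its lowest, median and highest levels were 176.5, 220.6 and 269.1 CPM in Control and 162.7, 210.8 and 284.9 CPM in iTgMir483. These ranges overlapped almost fully. The log2 fold change was -0.02 with a 95% CI of -0.33 to 0.29, so a change beyond 1.5-fold lay outside the interval in either direction.

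Gstt2, the third theta member, sits at chr10:75831114-75837424. Control livers had 79.9, 125.1 and 144.7 CPM (lowest, median, highest) and iTgMir483 livers 60.5, 86.5 and 114.8 CPM. Below all Controls were 2 iTgMir483 livers, and the rest lay within their range. With a log2 fold change of -0.46 (95% CI -0.82 to -0.10) and an adjusted p of 0.0680 by edgeR it was not called, and it did not reach the 1.5-fold limit in any of 22 alternatives.

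Since Gstt3 changed and Gstt1 did not pass, the difference between them was tested itself. The log2 ratio of Gstt3 to Gstt1 within each liver averaged -1.69 ± 0.34 (SD, n = 6) in Control and -3.001 ± 0.62 in iTgMir483. All 6 iTgMir483 livers lay below all 6 Controls, at -3.85 to -2.08 against -2.04 to -1.11. The difference of -1.31 had an exact two-sided permutation p of 0.0022, the smallest that 6 against 6 livers allow, and an adjusted p of 0.0195 over the 9 within-class pairs compared. The ratio needs no scaling between libraries.

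That pair was the single one of the 9 to pass. Gstt3 over Gstt2 differed by -0.88 (exact permutation p 0.0498, adjusted 0.117), with iTgMir483 1 near the top of the Control range. Without that library the difference was -1.17 with an exact permutation p of 0.0022 and an adjusted p of 0.00974, so 2 pairs passed. Without Control 1 instead, which had the highest Control ratio, it was -0.75 (exact permutation p 0.102, adjusted 0.153), and this pair did not pass. The remaining theta pair, Gstt2 over Gstt1, differed by -0.43 (exact permutation p 0.108, adjusted 0.162).

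**Figure D2:**
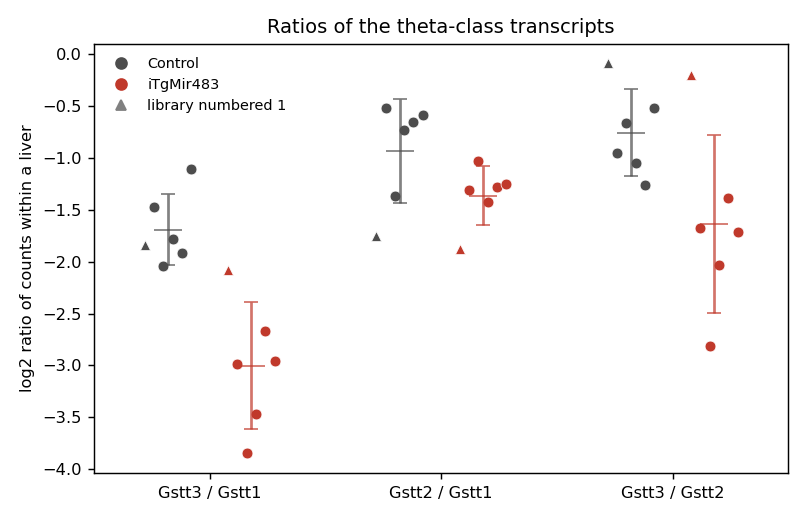
Points give the log2 ratio of 2 theta-class counts within a liver, grey for Control and red for iTgMir483, with mean and SD, and triangles mark the libraries numbered 1. For Gstt3 over Gstt1 the groups separate at about -2, with Control at -2.04 or above and iTgMir483 at -2.08 or below.

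The theta genes were not near copies of each other. Over their coding sequences Gstt3 was 75.8% identical to Gstt1 and 62.2% to Gstt2, and no 50-base window of Gstt1 occurred in a transcript of another gene. Summed CPM of the theta members was 362.9 to 462.6 in Control and 238.0 to 435.6 in iTgMir483. A refit with Gstt1, Gstt2, Gstt3 and Gstt4 added into a single row gave -0.29 (95% CI -0.58 to 0.01, adjusted p 0.165 by edgeR), which was not called.

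Gsta3, an alpha enzyme known in mouse for detoxifying the aflatoxin epoxide, gave by far the highest level among the members. Per kilobase of exon it reached 609.7 ± 232.3 CPM in Control (mean ± SD, n = 6), and the next gene, Gstt1, 153.3 ± 22.9. It took 45.7% to 66.0% of the members' summed CPM in a library. Its lowest, median and highest levels were 748.0, 792.2 and 1677 CPM in Control and 545.0, 746.6 and 1738 CPM in iTgMir483.

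The highest value in each group was that of the library numbered 1, and without them Control held 748.0 to 881.8 CPM and iTgMir483 545.0 to 1025 CPM. Under all Controls lay 3 iTgMir483 livers, and iTgMir483 1 lay above them. The estimate was a log2 fold change of -0.07 (95% CI -0.68 to 0.54, adjusted p 0.882 by edgeR), and -0.13 (adjusted p 0.596) without both libraries numbered 1. A 1.5-fold decrease lies within the interval.

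Gsta3 lies at chr1:21240589-21265661 on the plus strand. Among the promoters given by RefSeq (GRCm38.p6, 250 bases before to 50 after the start), those of 8 members were searched on both strands for the core letters that Nrf2 is known to read, TGACNNNGC. The promoter of Gsta3 held them, 121 bases upstream of the start, and it is printed since this gene had the highest level of the members. The window is chr1:21240454-21240483, plus strand, with the match in capitals.
Gsta3: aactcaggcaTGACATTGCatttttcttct
That was 1 of 8 members, and 12.4% of all 32851 promoters held the same letters. Promoters of Gsta4 and Gstt2 were not analysed here. The letters were not in the windows of Gstt3, nor were those of the other motifs searched.

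Gsta2 and Gsta1 are near copies of each other, 97.5% identical over the coding sequence. Gsta2, at chr9:78331018-78355788, had 10.7, 19.2 and 51.6 CPM in Control (lowest, median, highest) and 10.3, 22.7 and 38.7 CPM in iTgMir483. The top of each range was again the library numbered 1. Its log2 fold change was 0.06 with a wide 95% CI of -0.73 to 0.86 (adjusted p 0.924, edgeR).

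Gsta1, at chr9:78230656-78242684, held 0 to 8 counts in Control and 1 to 9 in iTgMir483, and was not tested. Reads for this pair are uncertain, since 89.7% of the 50-base windows of Gsta1 and 64.2% of those of Gsta2 occur in another gene, chiefly each other, Gm3776 and Gm10639. Adding these 4 rows together gave a log2 fold change of 0.08 (95% CI -0.72 to 0.88). Neither the single rows nor their sum was called.

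Their promoters share a stretch with the dioxin receptor core GCGTG (searched on both strands), shown because it lies within a few bases of the RefSeq start in both genes. For Gsta2 that start lies inside the gene span given above, which is that of GENCODE. The windows, chr9:78230655-78230684 on the plus strand for Gsta1 and chr9:78347135-78347164 on the minus strand for Gsta2, are identical at 29 of 30 bases.
Gsta1: cttactaaaggaGCGTGcacactcctctgg
Gsta2: cttactaaagtaGCGTGcacactcctctgg
Gstp1 held the same core in its promoter at chr19:4037908-4037937, minus strand.
Gstp1: ccggtggcctacGCGTGcgtcctcactctg
So 3 of the 8 members had it, against 32.4% of all promoters. The STAT letters TTCNNNGAA, which read the same on both strands, were in the promoter of Gsta1 alone, and in 8.3% of all promoters.

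Gsta4 encodes the alpha enzyme that removes 4-hydroxynonenal, a product of lipid peroxidation, and lies at chr9:78182774-78209349. It had 25.8, 31.3 and 70.3 CPM in Control and 29.5, 39.4 and 52.1 CPM in iTgMir483. Control 1 again held the highest value, while in iTgMir483 it was liver 2. With all libraries the log2 fold change was 0.06 (95% CI -0.42 to 0.54, adjusted p 0.877 by edgeR) and 0.32 (adjusted p 0.172) without both libraries numbered 1.

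Gstp1, at chr19:4035407-4037985, is the pi-class enzyme also known for binding the kinase JNK. Its lowest, median and highest levels were 51.2, 80.0 and 190.9 CPM in Control and 64.8, 72.6 and 128.1 CPM in iTgMir483, each maximum in the library numbered 1. No iTgMir483 liver was outside the Control range. Its log2 fold change of -0.23 (95% CI -0.80 to 0.34, adjusted p 0.586 by edgeR) was -0.08 without these libraries.

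Its neighbour Gstp3 behaved otherwise. Gstp3, at chr19:4057477-4059569, is not a member and is 73.0% identical to Gstp1 over the coding sequence. It rose from 5.29 to 11.2 CPM in Control to 19.3 to 35.0 CPM in iTgMir483, with no overlap (log2 fold change 1.76, SE 0.18, adjusted p 5.25e-05 by edgeR). Gstp2, whose coding sequence is 98.1% identical to that of Gstp1, held 1 to 22 counts and was not tested, and 62.3% of the 50-base windows of Gstp1 occur in another gene. Summing the 3 pi rows gave 0.09 (95% CI -0.42 to 0.59).

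Gstk1, the kappa enzyme, lies at chr6:42245935-42250447. Levels were 117.5, 131.0 and 159.9 CPM in Control and 101.5, 120.4 and 146.9 CPM in iTgMir483, and 3 iTgMir483 livers were under all Controls. This gave a log2 fold change of -0.15 (95% CI -0.38 to 0.08, adjusted p 0.347 by edgeR). Its spread was among the smallest, with a coefficient of variation of 11.4% in Control and 13.7% in iTgMir483.

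Gsto1, an omega enzyme that reduces dehydroascorbate, lies at chr19:47854970-47864790. Control livers had 130.1, 143.2 and 159.4 CPM and iTgMir483 livers 99.7, 118.8 and 135.8 CPM. Below every Control were 3 iTgMir483 livers, and the other 3 lay above Control 1 and below the remaining Controls. The log2 fold change was -0.30 (95% CI -0.52 to -0.08) with an adjusted p of 0.0597 by edgeR, so Gsto1 was not called, and its fold change stayed under 1.5 in all alternatives. Its adjusted p was 0.0351 without both libraries numbered 1.

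**Figure D3:**
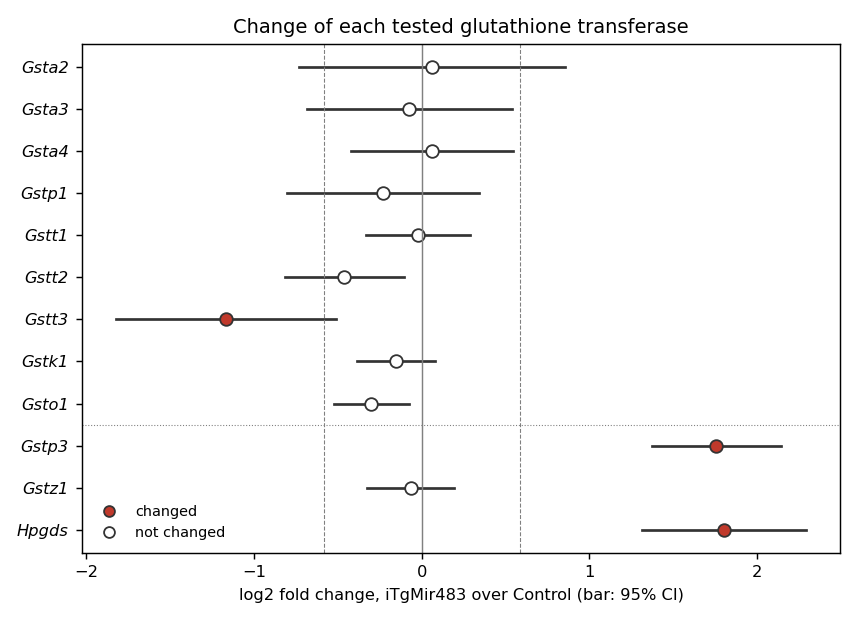
The log2 fold change of iTgMir483 over Control with its 95% confidence interval is shown for the 9 tested members and, under the dotted line, for 3 other soluble glutathione transferases. Filled points mark changed genes and dashed lines the 1.5-fold limits. Gstt3 is the only member past them, at -1.17.

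The order of the levels per kilobase of exon was much the same in both groups. After Gsta3 came Gstt1, Gstk1, Gsto1 and Gstp1, at means of 153.3 to 116.9 CPM per kilobase in Control, whose neighbours overlapped in range. Gstt2 (52.4), Gsta4 (38.4), Gstt3 (37.3) and Gsta2 (25.5) followed, again overlapping from each gene to the next, and Gsta1 was last at 0.16. In iTgMir483 livers Gstt3 took the place of Gsta2 as the ninth gene, at 16.6 ± 9.79 against 26.7 ± 11.5 CPM per kilobase for Gsta2, with Gsta2 higher in 6 of 6 livers. The summed CPM of all 10 members was 1799 ± 434 in Control and 1624 ± 528 in iTgMir483 (mean ± SD, n = 6 each).

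**Figure D4:**
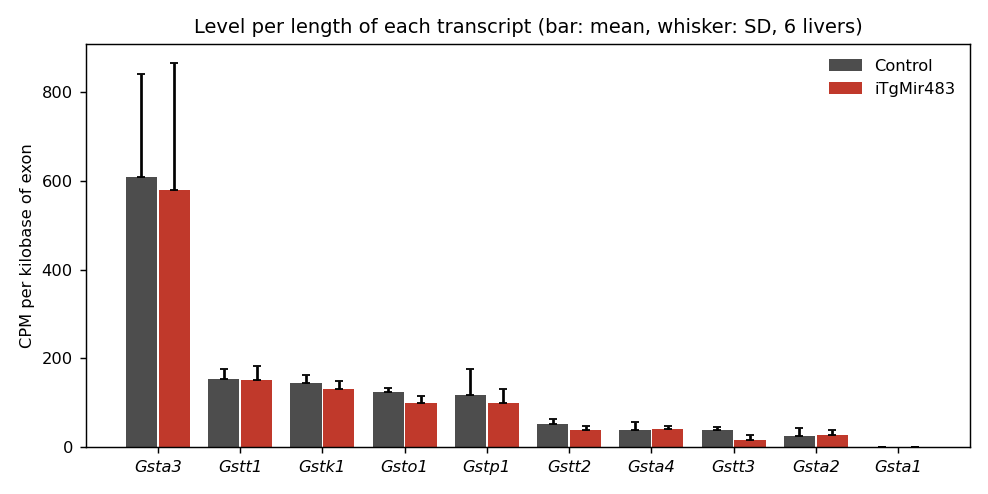
Bars give the mean CPM per kilobase of exon for each of the 10 members in Control (grey) and iTgMir483 (red), and whiskers 1 SD over 6 livers. Gsta3 stands far above the rest and Gstt3 falls from 37.3 to 16.6.

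The members were also compared by how livers departed from their group mean, over 12 libraries that share their scaling. Gsta2 and Gsta4 had r = 0.84 (rho 0.88), and 0.72 in the 10 libraries not numbered 1. Gsta3 and Gstp1 also had r = 0.84, but 0.39 without the libraries numbered 1. Gstt3 and Gstk1 had r = 0.79, and 0.73 without them, whereas Gstp1 and Gstt2 ran opposite at -0.73 and -0.54. These are descriptions without a test.

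**Figure D5:**
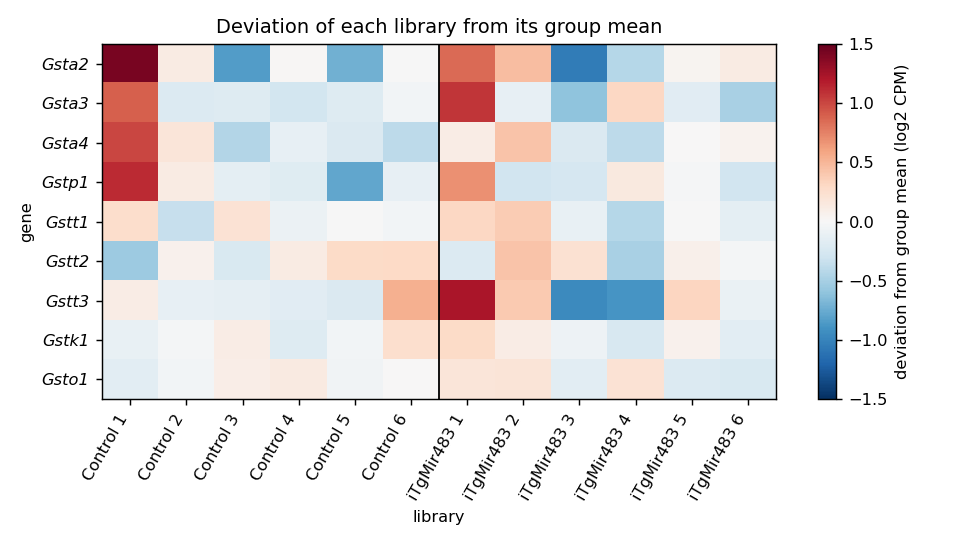
Colours show the deviation of log2 CPM from the group mean for each member (rows) and library (columns), red above and blue below. Control 1 is red for the alpha genes and Gstp1 and blue for Gstt2, and iTgMir483 livers 3 and 4 are blue for Gstt3.

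By the same measure the genes most like Gstt3 over the 12 libraries, among all tested, were Psmd5 (r = 0.92, rho = 0.83), Rnd2 (r = 0.90, rho = 0.88) and Zfp354b (r = 0.89, rho = 0.86). Without the 2 libraries in which Gstt3 was farthest from the median, iTgMir483 1 and 3, r was 0.86, 0.72 and 0.87. The genes were picked as the highest of 13205 over only 12 libraries. Whether an r of this size exceeds what that choice alone gives was not tested. Between the groups Psmd5 had a log2 fold change of -0.40, which passed the adjusted p (0.0331, edgeR) but not the 1.5-fold limit. Rnd2 rose (log2 fold change 1.07), and Zfp354b had 0.16 (adjusted p 0.587) and was not called.

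Among the other 8 soluble glutathione transferases 3 were tested. Besides Gstp3, Hpgds rose, the sigma-class prostaglandin D2 synthase of blood-derived cells, from 1.21 ± 0.33 to 4.28 ± 1.12 CPM (log2 fold change 1.80, adjusted p 0.000319 by edgeR). Gstz1, the maleylacetoacetate isomerase of tyrosine breakdown, had 856.6 ± 83.9 and 818.0 ± 118.2 CPM (log2 fold change -0.07, 95% CI -0.32 to 0.19). Gstt4, Gsto2, Gm3776 and Gm10639 held at most 8 counts in any library and, with Gstp2, were not tested.

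In the mu class, which the members leave out, 7 genes summed to 564.5 to 1247 CPM in Control and 1133 to 1509 CPM in iTgMir483. Of the 7, 2 rose and none fell, beside 8.41% of all genes that rose. Its median log2 fold change was 0.61, against -0.15 for the 9 members.

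The genes around the enzymes were counted from lists chosen with earlier results of these data known. Beside these counts, 8.41% of all genes were higher and 2.73% lower. Of 15 tested genes of glutathione synthesis and breakdown none rose and 1 fell, Cth, which makes cysteine from cystathionine (800.3 ± 143.9 to 408.6 ± 86.6 CPM, adjusted p 0.00195 by edgeR). Of 14 glutathione-dependent peroxidases and thiol enzymes 1 rose, the lipid peroxidase Gpx4 (log2 fold change 0.66), and 2 fell, Gpx1 (-0.66) and the glutaredoxin Glrx (-0.88). The medians of these lists were -0.09 and -0.07, beside 0.01 over all genes.

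Downstream, 2 of 11 tested genes of conjugate export and mercapturate formation rose and 1 fell, beside 8.41% and 2.73% of all genes. The exporters Abcc4 (log2 fold change 1.22, means 6.49 and 15.1 CPM) and Abcc1 (0.86, 2.61 and 4.78 CPM) rose. Acy1, which removes acetyl groups from mercapturates, fell (-0.72). By adjusted p alone 5 of the 11 passed, against 18.6% of all genes. These included the exporter Abcc3 (-0.58, 413 and 276 CPM, adjusted p 0.00572 by edgeR) and Nat8f2 (-0.50, adjusted p 0.0373), both lower but not past the 1.5-fold limit. Of 4 membrane transferases Ltc4s, the leukotriene C4 synthase, fell (-1.54, at means of 1.30 and 0.45 CPM). Of 19 regulators named for these genes none rose and 1 fell, the xenobiotic receptor CAR, encoded by Nr1i3, from 973.9 ± 176.4 to 403.7 ± 102.0 CPM (adjusted p 0.000478, edgeR). By adjusted p alone 3 of the 19 passed, against 18.6% of all genes. Besides Nr1i3 these were the dioxin receptor gene Ahr (log2 fold change -0.44, adjusted p 0.0207, edgeR) and the Nrf2 gene Nfe2l2 (0.36, adjusted p 0.0406). Neither reached the 1.5-fold limit. The medians of these lists, in the order given, were -0.03, -0.09 and -0.19.

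Some markers of other cells moved with the groups, beside 8.41% of all genes higher and 2.73% lower. Of 8 macrophage markers 7 rose, with a summed level of 319.3 to 467.4 CPM in Control and 492.7 to 1441 CPM in iTgMir483, and of 6 tested bile duct markers 3 rose (39.1 to 63.6 against 75.4 to 116.4 CPM). Of 3 tested lymphocyte and neutrophil markers the neutrophil genes S100a8 (log2 fold change 2.32) and S100a9 (2.67) rose, while the B cell gene Cd79a had -0.81 (adjusted p 0.0909, edgeR) and was not called. The whole list of 8 summed to 3.29 to 6.04 CPM in Control and 4.02 to 17.3 CPM in iTgMir483. Of 7 hepatocyte markers 1 fell, Cps1, and none rose. No marker of these lists was at 0 in all libraries. None of the 7 endothelial, 7 stellate or 5 red cell markers changed. By adjusted p alone 1 endothelial marker, Pecam1 (log2 fold change 0.42, adjusted p 0.0239 by edgeR), and 1 stellate marker, Rgs5 (0.54, adjusted p 0.00308), passed. In whole liver, fewer cells of a type and less RNA per cell cannot be told apart, and the part of cell make-up in the level of Gstt3, Gstp3 or Hpgds was not tested.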

How the data were processed

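The deposited values are raw counts of reads per gene. The authors prepared mRNA libraries with a stranded kit from total RNA, ran them paired-end with short reads, mapped these with STAR to GRCm38 and counted them over Ensembl genes. The strand setting is not given in the sources used here, and the counting also decided where reads common to paralogs went. Groups and replicate numbers came from the sample titles, and the library labels of all 12 share a prefix. No batch or date is given, so none could enter a fit.

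Counts were analysed in R 4.3.3 with edgeR 4.0.16: filterByExpr, TMM scaling and the quasi-likelihood test over 13205 genes with Benjamini-Hochberg adjustment, with genes called past 0.05 for the adjusted p and past a fold of 1.5. Standard errors are the size of the log2 fold change over the square root of F. Ratios within a liver (0.5 counts added) were tested by exact permutation. Alternatives used DESeq2 1.42.0, limma 3.58.1, other filters and scalings, a fold test, summed rows, a replicate block and left-out libraries. Of 55401 rows, 55141 had a symbol. Positions, lengths over exons and 3′ UTRs are those of GENCODE M21 and may differ from the release the authors counted with, and coding sequences were aligned with Biopython 1.88.

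The members and lists were chosen with earlier results of these data known. Named genes are the members, the other soluble transferases, at most 4 changed genes of each further list by smallest adjusted p, and the 3 genes most like a changed member. Ahr, Nfe2l2, Abcc3, Nat8f2, Cd79a, Pecam1, Rgs5 and Ddt are named besides, though not called. The limit at a count of 0 covers counting error only.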

Additional observations from a re-analysis of the deposited data

Results flagged for a closer look

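In 18 groups of 6 livers (9 tested members, each in Control and iTgMir483), 5 had a library whose gap to the nearest other, over the range of the group, passed Dixon's 95% critical value for 6 samples. About 0.9 would be flagged by chance, and all 5 were libraries numbered 1. In Control 1 they were Gsta3 (gap ratio 0.856, 1677 CPM against 748.0 to 881.8 CPM in the others), Gsta2 (0.749, 51.6 against 10.7 to 20.9 CPM), Gsta4 (0.682, 70.3 against 25.8 to 39.9 CPM) and Gstp1 (0.680, 190.9 against 51.2 to 95.9 CPM). In iTgMir483 1 it was Gstp1 (0.632, 128.1 against 64.8 to 88.1 CPM). Without passing, Gstt3 in Control 6 (0.621, 100.6 against 59.3 to 75.0 CPM) and Gsta3 in iTgMir483 1 (0.598, 1738 against 545.0 to 1025 CPM) came nearest, and Gstt3 in iTgMir483 1 had a gap ratio of 0.564. No theta, kappa or omega member was flagged.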

How the results depend on the processing

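The count of members changed was 1 under other scaling, other filters, DESeq2, limma-voom, the replicate block and each left-out library. It was 0 under the test against a fold change of 1.5. It was also 0 with paralog rows summed, where Gstt3 had no row of its own and so could not be called. Over all genes the number changed was 226 under the fold test and 2457 by adjusted p alone. Gstt3 gave -1.17 (adjusted p 0.249, edgeR) under the fold test. With 1 library left out it gave -1.501 to -1.01 (adjusted p 0.00152 to 0.0418, edgeR), so its call was kept in all 12 of these. The single row of the summed theta genes gave -0.29 (adjusted p 0.165, edgeR), which is not an estimate for Gstt3 alone. Members that were not called changed sign with 1 library left out: Gsta2 ranged from -0.14 to 0.51, Gsta3 from -0.37 to 0.17, Gsta4 from -0.037 to 0.33, Gstp1 from -0.40 to 0.087 and Gstt1 from -0.10 to 0.057. The single row of the summed pi genes gave 0.086. Of the within-class ratio pairs, 1 to 2 passed with 1 library left out. Gstt2 and Gsto1 passed by adjusted p, at a fold change under 1.5, with DESeq2 (0.0374 and 0.0237) and without some libraries (lowest 0.0212 for Gstt2 without Control replicate 1).

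With the replicate block, 1530 genes changed and Gstt3 had -1.33 (adjusted p 0.00636), while 0 ratio pairs passed when permuted within replicate numbers, where the smallest p is 0.03125. Between libraries of equal number the deviations from group means had correlations of 0.034 to 0.440. The correlation was highest for the libraries numbered 1 and at or under 0.1 for 4 of 6 pairs. Whether the numbers pair the mice cannot be told from these values. RLE scaling moved the median of all genes to -0.01. Gsta1, at 0 to 9 counts, was too shallow to test. The cause of these shifts was not tested.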
